A study of Mus musculus with 18 samples.

Results

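The genes described here build cholesterol and long-chain fatty acids, together with the regulators of those pathways. The set holds 32 named genes, chosen by name from textbook pathway membership. A gene was measured where at least 1 probe set of the array was annotated to its symbol, or to an older symbol of it, and to no other gene. By that rule 31 genes were measured, out of 20416 gene symbols on the array. Acat2, an acetoacetyl-CoA thiolase, was not analysed here, and Msmo1 was found under its older symbol Sc4mol. The 31 genes fall into a sterol branch of 21, made up of 6 mevalonate enzymes, 11 enzymes from squalene synthesis onward and 4 regulators, and a fatty acid branch of 10.

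Cholesterol is made from acetyl-CoA through mevalonate, farnesyl pyrophosphate, squalene and lanosterol, and fatty acids are made from acetyl-CoA through malonyl-CoA. Transcription of both sets of enzymes is driven by the SREBP factors, SREBP2 mainly for sterols and SREBP1 mainly for fatty acids. SCAP escorts these factors out of the endoplasmic reticulum when sterols are low, and INSIG1 holds them back when sterols are high. Brain makes its own cholesterol, and oligodendrocytes use both pathways heavily when they build myelin.

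RNA of the caudal corpus callosum, a white matter tract, from C57BL/6 mice was measured on 18 one-colour arrays. Every mouse received food with 0.2% cuprizone (CPZ), a toxin that binds copper and causes loss of oligodendrocytes and of their myelin. Mice were either wild type (WT) or carried a homozygous knockout (KO, Trem2-/-) of Trem2, a receptor of microglia and other myeloid cells that binds lipids. At 6 weeks WT had 4 arrays and KO 3, and at 12 weeks WT had 5 and KO 6. The labels do not settle whether the weeks count mouse age or CPZ feeding, and the arrays used here include none from mice without CPZ. The labels do not say that arrays come from separate mice, so p-values reflect only how much these samples vary, part of which may be technical. The tissue is a mixture, so fewer cells of a type and less RNA per cell cannot be told apart.

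Values are on the deposited log2 scale, a gene's level on each array is the median over its probe sets, and KO minus WT or 12 minus 6 weeks gives a log2 difference. A gene passed where limma's adjusted p, over the 16332 genes tested, was under 0.05. All 31 genes were among those tested, since their mean over all arrays lay above the filter level of 3.41. Array medians ran from 5.26 to 5.41. Trem2 was lower in the KO arrays, with a difference of -1.49 at 6 weeks (WT 6.44 to 8.42, KO 5.42 to 6.05, adjusted p = 0.248) and -2.09 at 12 weeks (adjusted p = 0.00253), though it is not known here whether its probe sets lie in the deleted part. The 14 measured markers of mature oligodendrocytes and myelin, the cells that define this tract, all had a mean over the 18 arrays above the filter level. A pair of 6-week arrays stood apart and had the lowest weights in limma's array weighting. WT replicate 4 (weight 0.502) had a choroid plexus marker score of 3.06, with the other 17 arrays between -1.36 and 1.41. That array also had a low neuron score, -1.59, and the highest myelin marker score, 2.13. KO replicate 2 (weight 0.446) had the highest immediate early gene score, 1.80, and the lowest neuron score, -1.98. A score is the mean, over a list, of each gene's log2 value minus its mean over the 18 arrays.

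Thrsp was higher in KO than in WT callosum at both stages, and it was the single member to pass in any comparison. It encodes thyroid hormone responsive protein (Spot 14), a small nuclear protein of lipogenic tissues that is induced with fatty acid synthesis. At 6 weeks its log2 values were 7.45, 6.95, 7.81 and 7.67 in WT and 8.97, 9.74 and 8.94 in KO. The lowest KO array stood more than a log2 unit above the highest WT array. The difference was 1.75 (SE 0.27, adjusted p = 0.0136), which is 3.36-fold, and higher in 3 of 3 KO arrays than in every WT array. At 12 weeks WT arrays read 7.58, 7.99, 7.40, 6.88 and 7.71, and the 6 KO arrays ran from 8.49 to 9.15 with a median of 8.93. Again the groups did not overlap. The difference was 1.39 (SE 0.22, adjusted p = 0.00676), or 2.61-fold. Exact two-sided permutation tests over the arrays gave p = 0.0286 at 6 weeks and p = 0.00216 at 12 weeks, each the smallest p those group sizes allow.

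Over all genes, 0.0429% passed in the genotype comparison at 6 weeks and 0.441% at 12 weeks, against 1 of 31 members at each stage. Groups that did not overlap were commoner, 5.08% of all genes at 6 weeks and 2.47% at 12 weeks. Thrsp passed neither stage comparison nor the interaction. The 12 minus 6 week difference was 0.04 in WT (95% interval -0.46 to 0.54) and -0.32 in KO (-0.85 to 0.21), and the genotype by stage interaction was -0.36 (SE 0.35, adjusted p = 0.965). The call at 6 weeks was lost when any of 3 arrays was left out. The difference was 1.74 without WT replicate 1 (adjusted p = 0.0592), 1.57 without WT replicate 2 (adjusted p = 0.0616) and 1.49 without KO replicate 2 (adjusted p = 0.227). Without both low-weight arrays it was 1.56 (adjusted p = 0.111), and from the 7 arrays of 6 weeks alone, which leaves fewer degrees of freedom, it was 1.75 (adjusted p = 0.939). Fitted with replicate number as a block, Thrsp passed at neither stage, and its 12-week difference was 1.34 (adjusted p = 0.0509).

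**Figure D1:**
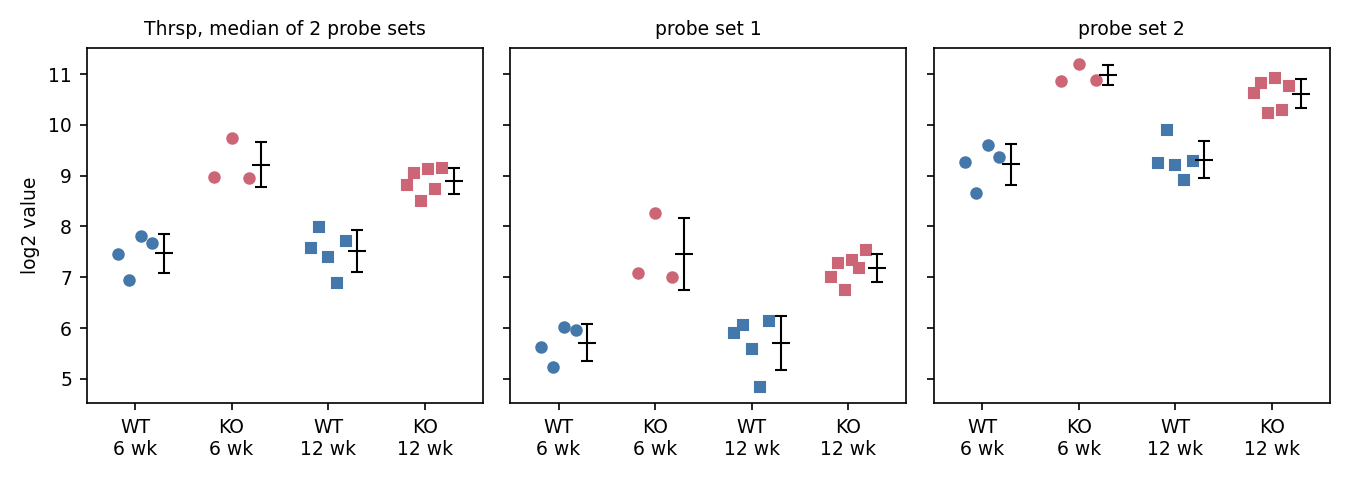
Log2 value of Thrsp on each array (points) by genotype and stage (blue WT, red KO; circles 6 weeks, squares 12 weeks), for the gene value and each of its 2 probe sets; black bars are the mean and SD of a group. KO arrays lie above every WT array of their stage, 8.94 to 9.74 against 6.95 to 7.81 at 6 weeks, and do so on each probe set.

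Both probe sets of Thrsp separated the genotypes. On probe set 1 KO arrays ran from 7.01 to 8.27 at 6 weeks and WT arrays from 5.23 to 6.02. On probe set 2 the corresponding ranges were 10.86 to 11.20 and 8.66 to 9.61. At 12 weeks the ranges were 6.75 to 7.53 against 4.84 to 6.13 on probe set 1, and 10.24 to 10.92 against 8.92 to 9.90 on probe set 2. The genes next to Thrsp on chromosome 7 moved less. Among the 3 nearest measured genes on each side (Kctd21, Alg8, Ndufc2, Kctd14, Ints4 and Aamdc), KO minus WT ran from -0.35 for Alg8 to 0.21 for Kctd14 at 6 weeks, and from -0.20 for Aamdc to 0.50 for Kctd14 at 12 weeks.

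Markers of other cells moved with genotype alongside Thrsp. All 9 homeostatic microglia markers were higher in KO at both stages, with 3 passing at 6 weeks and 6 at 12 weeks, and their mean log2 level ran from 6.42 to 7.15 in WT and 7.76 to 9.35 in KO at 6 weeks. Astrocyte markers were higher in KO for 9 of 10 genes at 6 weeks and 10 of 10 at 12 weeks, with 0 passing, and 6 and 7 of them at an unadjusted p under 0.05. Their mean level was 8.08 to 8.61 in WT and 8.53 to 9.10 in KO at 6 weeks, and 8.07 to 8.26 against 8.47 to 8.87 at 12 weeks. Immediate early genes were higher in KO for 9 of 10 at 6 weeks (median 1.12, 7 at an unadjusted p under 0.05 and 0 passing), with a mean level of 5.44 to 6.07 in WT and 6.17 to 7.70 in KO, and for 3 of 10 at 12 weeks. Over all genes 5.44% at 6 and 11.1% at 12 weeks had an unadjusted p under 0.05. Choroid plexus markers were higher in KO for 1 of 6 at 6 weeks and 6 of 6 at 12 weeks (median 0.67). Endothelium markers were higher for 3 of 5 and 4 of 5 (12-week median 0.69). Neuron markers were lower for 8 of 8 at 6 weeks (median -0.26) and 6 of 8 at 12 weeks. No choroid plexus, endothelium or neuron marker passed. The part of all these markers in the Thrsp difference was not tested. At 12 weeks the Thrsp difference was 1.22 among arrays with female and 1.46 among arrays with male transcripts (Xist against Y-linked genes), and 1.00 and 1.68 in the 2 stretches in which the samples are listed. At 6 weeks it was 1.20 in females, with 1 KO array, and 2.16 in males. At 12 weeks WT and KO arrays of the same sex came from different stretches, and those of the same stretch differed in sex.

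Upstream sequence of 3 genes is shown, for the member that passed, for the mevalonate gene with a sterol regulatory element and for the post-squalene gene with the largest difference between stages of the genotype effect. Each is the 250 bases before the start site from RefSeq, build GRCm38.p6, in the direction of the gene: Thrsp at chr7:97417551-97417800 (minus strand), Hmgcs1 at chr13:119690101-119690350 (plus strand) and Msmo1 at chr8:64733579-64733828 (minus strand). Capitals mark a CCAAT box (CCAAT, or ATTGG on the other strand) or the sterol regulatory element core TCACNCCAC.
Thrsp: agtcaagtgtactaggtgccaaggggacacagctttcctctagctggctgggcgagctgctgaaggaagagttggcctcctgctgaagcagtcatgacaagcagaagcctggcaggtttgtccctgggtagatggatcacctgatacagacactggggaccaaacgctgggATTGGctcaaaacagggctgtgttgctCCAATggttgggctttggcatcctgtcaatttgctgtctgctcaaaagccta
Hmgcs1: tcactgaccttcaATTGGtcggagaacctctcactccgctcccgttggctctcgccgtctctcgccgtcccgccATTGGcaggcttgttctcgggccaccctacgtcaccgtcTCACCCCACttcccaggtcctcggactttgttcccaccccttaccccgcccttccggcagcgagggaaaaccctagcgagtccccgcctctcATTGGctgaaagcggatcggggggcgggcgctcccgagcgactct
Msmo1: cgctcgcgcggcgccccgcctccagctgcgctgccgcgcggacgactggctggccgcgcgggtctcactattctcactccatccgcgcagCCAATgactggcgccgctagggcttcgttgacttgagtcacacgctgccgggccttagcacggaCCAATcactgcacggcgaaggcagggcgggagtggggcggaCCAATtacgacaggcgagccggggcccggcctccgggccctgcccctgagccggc
CCAAT boxes, bound by NF-Y, which works beside SREBP at many sterol promoters, start at -79 and -52 in Thrsp, and at -160, -96 and -55 in Msmo1. In the stretch of Hmgcs1 they start at -237, -176 and -45, with the sterol element at -137. In windows from 250 bases before to 50 after the start, found for 24 of the 31 genes in 30 windows, a CCAAT box on either strand was in 21 windows (70%), against 37.4% of all 32851 RefSeq mouse windows of that length. The sterol element core was in 1 of the 30 windows, that of Hmgcs1, and in 1.24% of all windows. The E-box CACGTG was in 6 windows (20%) of Hsd17b7, Sc5d, Dhcr7, Scap and Insig1, against 7.15% of all. The motifs share no letters at any marked place in these 3 stretches.

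No other member passed at 6 weeks. Of 31 members 13 were higher and 18 lower in KO, with a median log2 difference of -0.05 beside -0.00 over all genes tested, of which 49.6% were higher. At an unadjusted p under 0.05 there were 3 members, Thrsp, Elovl6 and Cyp51, where 5.44% of all genes reached it. All 6 mevalonate enzymes were lower in KO, from -0.05 for Pmvk to -0.74 for Idi1, with a median of -0.23 and 0 passing, and 4 of the 6 were lower without both low-weight arrays. The post-squalene enzymes were lower for 7 of 11, and the regulators for 2 of 4. The branch medians were -0.12 for sterol genes and 0.08 for fatty acid genes. With brightest probe sets 6 of the 31 members were higher, and without WT replicate 2 there were 9. The sterol median was -0.34 without WT replicate 2, and the fatty acid median 0.38 without WT replicate 4.

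**Figure D2:**
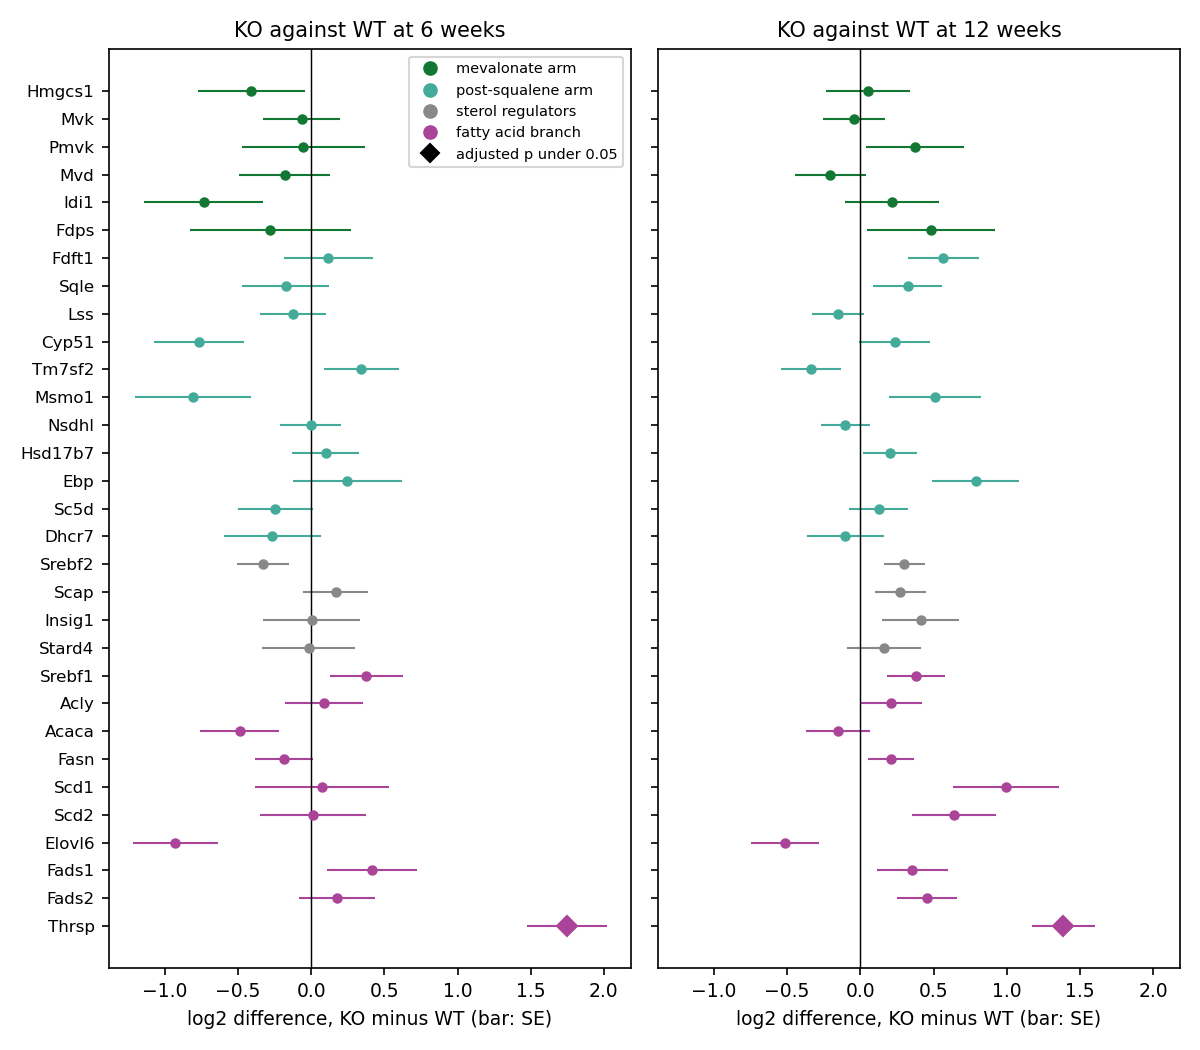
Log2 difference, KO minus WT, of each of the 31 members (points; bars are the SE of the limma fit) at 6 weeks on the left and 12 weeks on the right, coloured by arm. Thrsp (diamond) is the single member with an adjusted p under 0.05, at 1.75 and 1.39; at 12 weeks 23 members lie to the right of 0.

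Elovl6, the elongase that takes palmitate to stearate, read 7.57, 6.85, 6.98 and 7.77 in WT at 6 weeks and 6.96, 6.05 and 6.08 in KO. The KO array at 6.96 reached into the WT range. The difference was -0.93 (SE 0.29, adjusted p = 0.647), and 6 of its 7 probe sets gave the same sign. At 12 weeks WT arrays read 6.75, 7.31, 7.20, 7.15 and 6.67, and KO arrays 5.98 to 7.12 with a median of 6.46. The groups overlapped and the difference was -0.51 (SE 0.23, adjusted p = 0.413). Elovl6 was the one fatty acid gene besides Acaca that was lower in KO at both stages, while neither passed.

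In the sterol branch the largest 6-week differences were in Msmo1, Cyp51 and Idi1. Cyp51, the lanosterol demethylase, read 5.62, 5.80, 6.85 and 6.44 in WT and 5.85, 4.89 and 5.50 in KO. The difference was -0.76 (SE 0.31, adjusted p = 0.819), and the groups overlapped. Msmo1, the methylsterol monooxygenase that acts after Cyp51, read 6.61, 6.29, 6.47 and 7.63 in WT and 6.00, 6.22 and 5.61 in KO. Its KO arrays all lay below its WT arrays, by a narrow gap, with a difference of -0.81 (SE 0.40, adjusted p = 0.923). Idi1, which isomerises isopentenyl pyrophosphate, read 5.06, 4.65, 5.38 and 5.41 in WT and 3.86, 4.15 and 5.16 in KO. Its groups overlapped through that last KO array, and the difference was -0.74 (SE 0.41, adjusted p = 0.945). Without both low-weight arrays the differences were -0.65 for Msmo1, -0.42 for Cyp51 and -0.52 for Idi1, and with brightest probe sets Idi1 was at -0.38. Fdps, Mvd, Mvk, Pmvk and Hmgcs1, the other mevalonate enzymes, ran from -0.41 in Hmgcs1 to -0.05 in Pmvk.

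At 12 weeks more members were higher in KO. Of the 31 genes 23 were higher and 8 lower, with a median of 0.24 beside 0.02 over all genes, of which 52.4% were higher. With each gene read from its brightest probe set, 17 were higher and 14 lower. At an unadjusted p under 0.05 there were 7 higher and 1 lower, where 11.1% of all genes reached it in either direction. Of these Thrsp alone passed after adjustment. The higher ones were Thrsp, Scd1, Ebp, Scd2, Fdft1, Fads2 and Srebf2, and the lower one was Elovl6. The fatty acid branch was higher for 8 of 10 genes with a median of 0.37, and the sterol branch for 15 of 21 with a median of 0.22. The sterol median was -0.0032 with brightest probe sets, and the fatty acid median 0.36 without Thrsp.

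The stearoyl-CoA desaturases, which make oleate and palmitoleate, were among the larger 12-week differences. Scd1 read 7.32, 8.58, 8.86, 9.39 and 8.95 in WT, and 9.46 to 9.90 in KO with a median of 9.60. The KO arrays were tightly grouped and all lay above the WT arrays, the lowest by a small margin. The difference was 1.00 (SE 0.36, adjusted p = 0.299; exact permutation p = 0.00216), or 2.00-fold, and all 9 probe sets gave the same sign. Scd2, the brain's most abundant desaturase, read 8.54, 8.94, 9.46, 9.73 and 9.47 in WT and 9.44 to 10.20 in KO, with a median of 9.87. Its groups overlapped, and the difference was 0.64 (SE 0.29, adjusted p = 0.416). At 6 weeks neither differed beyond its error, at 0.07 (SE 0.46) for Scd1 and 0.01 (SE 0.36) for Scd2, and the interactions were 0.92 (SE 0.58, adjusted p = 0.956) and 0.63 (SE 0.46, adjusted p = 0.963).

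The other fatty acid genes followed with smaller values at 12 weeks. Srebf1, the gene of SREBP1, ran from 6.50 to 6.87 in WT and from 6.92 to 7.29 in KO. Its groups did not overlap, and the difference was 0.38 (SE 0.20, adjusted p = 0.484). Fads2, the delta-6 desaturase of polyunsaturated fatty acids, read 8.79, 9.25, 9.49, 8.83 and 9.16 in WT and 9.30 to 9.86 in KO, a difference of 0.45 (SE 0.21, adjusted p = 0.422) with all 13 probe sets of one sign. Its neighbour in function Fads1, the delta-5 desaturase, differed by 0.36 (SE 0.24). The enzymes of the committed path, Acly (0.21, SE 0.20), Acaca (-0.15, SE 0.22) and Fasn (0.21, SE 0.16), did not differ beyond about their own error. These values depended on the probe set. With brightest probe sets they were -0.12 for Acly, -0.21 for Acaca and 0.68 for Fasn, and none passed. The 3 members whose groups did not overlap at 12 weeks were Thrsp, Scd1 and Srebf1, where 2.47% of all genes had such groups.

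Among sterol genes at 12 weeks, Ebp, the sterol isomerase also known as emopamil binding protein, read 4.96, 5.03, 4.91, 4.19 and 5.69 in WT and 5.19 to 6.43 in KO. One WT array reached the KO range, and the difference was 0.79 (SE 0.30, adjusted p = 0.320), or 0.42 with the brightest probe set. Fdft1, squalene synthase, differed by 0.57 (SE 0.24, adjusted p = 0.387), and Sqle, squalene epoxidase, by 0.32 (SE 0.24). With brightest probe sets these differences were 0.0097 for Fdft1 and -0.42 for Sqle. All 4 regulators were higher, by 0.41 for Insig1, 0.30 for Srebf2, 0.27 for Scap and 0.16 for Stard4, a sterol carrier, with 0 passing, though with each gene read from its brightest probe set Insig1 and Srebf2 were lower and the other 2 higher. For Insig1, which read 6.39, 7.54, 7.37, 6.30 and 7.41 in WT and 6.80 to 8.0 in KO, the groups overlapped. Lss, Tm7sf2, Nsdhl, Dhcr7, Mvd and Mvk were lower, from -0.34 in Tm7sf2 to -0.04 in Mvk. These medians differed between the 2 stretches in which the samples are listed. In the first stretch of 12-week samples the sterol median was 0.38 and the fatty acid median 0.53, and in the second they were 0.02 and 0.22. Sex ran against genotype within each stretch, with female WT and male KO arrays in the first and the opposite in the second, so neither stretch separates them.

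The branches were also scored on each array. At 12 weeks the fatty acid score was -0.64, -0.15, -0.02, -0.22 and -0.18 in WT, and 0.07 to 0.27 in KO with a median of 0.15. Every KO array lay above every WT array, and WT replicate 1 was far below the rest. That separation needed Thrsp. Scored over the other 9 genes, an alternative chosen after seeing the data, WT replicate 3 (0.07) lay within the KO range of 0.02 to 0.28, and the groups overlapped. The sterol score was -0.30, -0.22, 0.12, -0.22 and -0.02 in WT and -0.13 to 0.28 in KO, with overlap. At 6 weeks the fatty acid score was -0.25, -0.55, 0.23 and 0.51 in WT and -0.00, 0.32 and 0.02 in KO. The sterol score was 0.01, -0.29, 0.31 and 0.39 in WT, and -0.17, -0.03 and 0.01 in KO. In both branches the 6-week WT arrays spanned more than the KO arrays of that stage did. The fatty acid score minus the sterol score of an array was -0.26, -0.27, -0.08 and 0.12 in WT and 0.16, 0.35 and 0.01 in KO at 6 weeks, and had medians of -0.14 in WT and 0.08 in KO at 12 weeks. The groups overlapped at both stages.

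**Figure D3:**
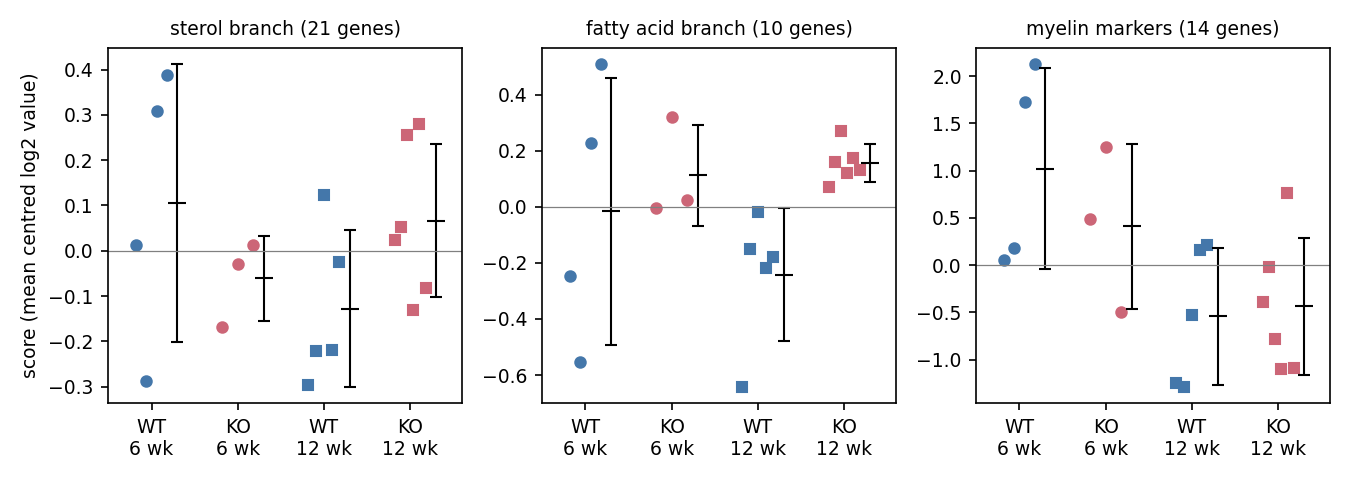
Score of each array (points; mean over genes of the log2 value minus the gene's mean over arrays) for the sterol branch, the fatty acid branch and the 14 myelin markers, by genotype and stage (blue WT, red KO); black bars are the mean and SD of a group. WT replicates 3 and 4 of 6 weeks have the highest myelin marker scores, 1.72 and 2.13, and the highest sterol scores, 0.31 and 0.39.

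Between stages 0 of 31 members passed in either genotype. Over all genes 0.0184% passed in WT and 0.00612% in KO. In WT 22 of 31 members were lower at 12 weeks, with a median of -0.27 beside 0.01 over all genes. At an unadjusted p under 0.05 there were 4 lower and 0 higher, where 8.47% of all genes reached it. They were Scd2 (-0.73, SE 0.32), Ebp (-0.72, SE 0.33), Cyp51 (-0.65, SE 0.27) and Srebf2 (-0.35, SE 0.15), with adjusted p from 0.516 to 0.568. In KO 20 of 31 were higher at 12 weeks, with a median of 0.13 beside 0.02 over all genes, and 3 reached an unadjusted p under 0.05, where 7.51% of all genes did. Among the markers, immediate early genes in KO were lower at 12 weeks for 10 of 10 (median -1.26, 8 at an unadjusted p under 0.05). Neuron markers were higher at 12 weeks for 8 of 8 in both genotypes (medians 0.84 in KO and 0.55 in WT). Choroid plexus markers were lower for 6 of 6 in WT (median -1.41) and higher for 4 of 6 in KO. None of these markers passed, and their part was not tested. Without both low-weight arrays the WT medians were -0.16 for the sterol and -0.04 for the fatty acid branch, in place of -0.31 and -0.18. Groups of different stage overlapped for all 31 members in both genotypes, where 2.49% of all genes in WT and 3.9% in KO had groups that did not.

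The 3 genes with the smallest p in KO between stages were Tm7sf2, Msmo1 and Insig1. Tm7sf2, a sterol reductase, read 5.45, 5.84 and 5.75 at 6 weeks and 4.77 to 5.48 at 12 weeks, with a median of 5.12. The difference was -0.56 (SE 0.24, adjusted p = 0.627), with 9 of 11 probe sets of the same sign, though the brightest one gave 0.11. Msmo1 was 0.79 higher (SE 0.37, adjusted p = 0.661) and Insig1 0.64 higher (SE 0.31, adjusted p = 0.665). Insig1 read 6.76, 6.88 and 6.67 at 6 weeks and had a median of 7.35 at 12 weeks, where KO replicate 1 at 6.80 lay within the 6-week range.

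The genotype difference had a higher value at 12 than at 6 weeks for 25 of 31 members, with a median interaction of 0.37 beside 0.02 over all genes, of which 52.1% were above 0. No interaction passed, for these or for any gene by limma (0% of all genes), and 3 members had an unadjusted p under 0.05, where 5.21% of all genes did. These were Msmo1, Cyp51 and Srebf2, all above 0. The branch medians were 0.41 for sterol and 0.31 for fatty acid genes. Without WT replicate 4 of 6 weeks the sterol median was 0.21. In the same contrast 13 of 14 myelin markers (median 0.81) and 6 of 6 choroid plexus markers (median 1.23) were above 0. Immediate early genes were below 0 for 9 of 10 (median -1.27, 6 at an unadjusted p under 0.05). None of these passed, and their part in the members' values was not tested.

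Msmo1 had the largest interaction, 1.32 (SE 0.50, adjusted p = 0.908). Its 12-week values were 5.4, 5.55, 6.95, 6.57 and 6.66 in WT and 5.89 to 7.31 in KO, with a median of 6.72. The low WT pair, replicates 1 and 2, are the female arrays of the first stretch of the listing, and the high trio the male arrays of the second. The 12-week difference was 1.35 in the first stretch and -0.08 in the second, and the 12-week groups overlapped. With the brightest probe set the interaction was 0.41 and the 6-week difference -0.13. For Cyp51 the 12-week values were 5.70, 5.09, 5.84, 4.96 and 6.04 in WT and 5.52 to 6.02 in KO, and the interaction was 1.00 (SE 0.39, adjusted p = 0.915). Srebf2, the gene of SREBP2 itself, read 7.0, 7.04, 7.18 and 7.44 in WT and 6.59, 6.95 and 6.97 in KO at 6 weeks, the KO arrays all lower. At 12 weeks it read 6.68, 6.68, 6.98, 6.74 and 7.03 in WT and 6.97 to 7.28 in KO, with overlap. Its differences were -0.33 (SE 0.18) and 0.30 (SE 0.14), and its interaction was 0.63 (SE 0.22, adjusted p = 0.838). With brightest probe sets the 12-week differences were -0.08 for Cyp51 and -0.20 for Srebf2, and the interactions 0.84 and 0.83. The 6-week groups did not overlap for 3 members, Thrsp above and Msmo1 and Srebf2 below, where 5.08% of all genes had such groups.

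**Figure D4:**
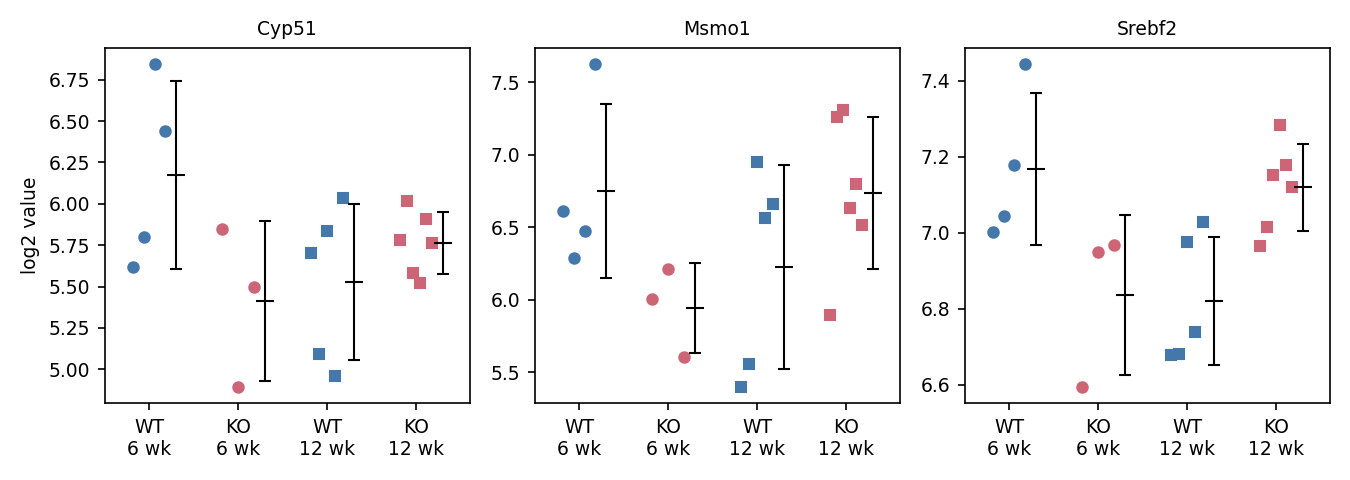
Log2 values of Cyp51, Msmo1 and Srebf2 on each array by genotype and stage (blue WT, red KO; circles 6 weeks, squares 12 weeks); black bars are the mean and SD of a group. KO means lie below WT at 6 weeks and above WT at 12 weeks in each panel, and the difference between stages passed for none of the 3. With brightest probe sets, not shown, Cyp51 and Srebf2 were lower in KO at 12 weeks.

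Myelin markers varied with the same arrays. They were lower in KO for 13 of 14 genes at 6 weeks (median -0.59), higher for 9 of 14 at 12 weeks (median 0.17), and lower at 12 than at 6 weeks for 14 of 14 genes in both genotypes (medians -1.67 in WT and -0.84 in KO), with 0 passing throughout. Between stages in WT 12 of the 14 reached an unadjusted p under 0.05, and 4 had groups that did not overlap. Their mean log2 level ran from 7.81 to 9.89 in WT and 7.26 to 9.01 in KO at 6 weeks, and from 6.47 to 7.97 and 6.65 to 8.52 at 12 weeks. To see which members follow myelin within a group, each array's deviation from its group mean was set against the deviation of its mean myelin marker level, over 18 arrays, a relation looked for after the values were seen. Of 31 members 28 had a positive r, with a median of 0.383. The relation was not computed over all genes, so it is not known here how far these counts differ from those of other genes.

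In 2 of the 31 relations the permutation p, with arrays permuted within groups 100000 times, passed after Benjamini-Hochberg adjustment. The permutation took no account of sex or listing stretch. In WT at 12 weeks the female arrays of the first stretch had lower myelin deviations (-0.71 and -0.75) than the male arrays of the second. In WT at 6 weeks the female arrays were the higher ones, and in KO at 12 weeks the sexes overlapped. At 6 weeks the arrays with higher myelin scores had lower neuron scores. Neuron scores were 0.55, 0.35, -0.59 and -1.59 in WT and -0.04, -1.98 and 0.17 in KO. In WT at 12 weeks replicates 1 and 2, lowest in myelin score, also had the lowest neuron scores, 0.24 and 0.15. The part of sex, stretch and the mixture of cells in these relations was not tested. Scd2 had r = 0.828 (permutation p adjusted 0.0245) and rho = 0.849 (adjusted 0.0299), and r was 0.803 without the 2 arrays farthest from the median myelin deviation, WT replicate 4 of 6 weeks and KO replicate 5 of 12 weeks. Scd1 had r = 0.701 (permutation p adjusted 0.0335) and rho = 0.732 (adjusted 0.0299), and r = 0.640 without those arrays. Sc5d, the lathosterol oxidase, had r = 0.703 but missed the threshold (permutation p adjusted 0.0549). For Thrsp r was 0.138, for Elovl6 0.075 and for Stard4 -0.354, and none of these passed. The difference between the coefficients of these genes was not tested.

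**Figure D5:**
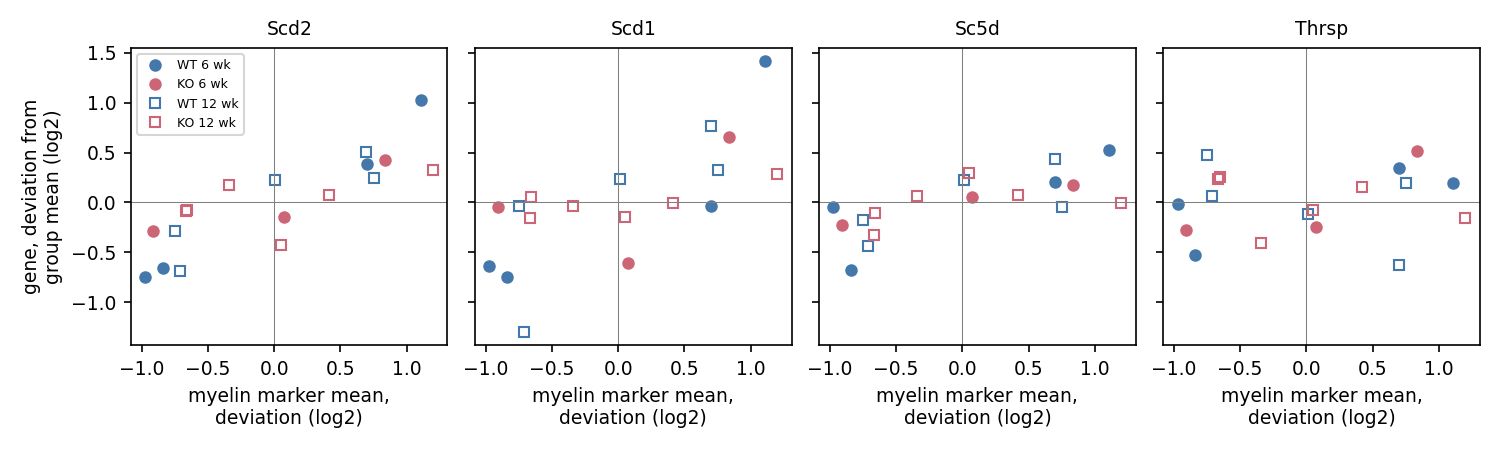
Deviation of Scd2, Scd1, Sc5d and Thrsp from their group mean (vertical axis, log2) against the deviation of the mean of the 14 myelin markers (horizontal axis, log2), 1 point for each of the 18 arrays (blue WT, red KO; filled circles 6 weeks, open squares 12 weeks). Scd2 rises with the marker mean across arrays (r = 0.828) and Thrsp shows no such slope (r = 0.138).

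Genes of the same pathways outside the set gave no calls. Of 9 other sterol synthesis genes measured, 8 of them tested, 0 passed in any comparison, and medians of KO minus WT were 0.06 at 6 and 0.15 at 12 weeks. The smallest p at 12 weeks was that of Insig2, a second sterol sensor (0.58, SE 0.22, adjusted p = 0.339). Of 19 other fatty acid genes measured, 18 of them tested, 0 passed, with medians of 0.00 and 0.08. Slc25a1, the mitochondrial citrate carrier that supplies acetyl-CoA for both pathways, ran from 6.64 to 8.13 in WT and 6.44 to 6.54 in KO at 6 weeks, and from 6.22 to 6.51 and 6.30 to 7.18 at 12 weeks. Its interaction was 1.20 (SE 0.36, adjusted p = 0.783). Elovl7, an elongase, was lower at 12 than at 6 weeks in WT (log2 difference -2.17, SE 0.52, adjusted p = 0.225).

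Of 12 genes of sterol disposal and the liver X receptors, 1 passed. Cyp7b1, the oxysterol 7-alpha-hydroxylase, ran from 5.76 to 6.79 in WT and from 6.82 to 7.57 in KO at 12 weeks, with no overlap. It was 0.94 higher in KO (SE 0.21, adjusted p = 0.0466), or 1.92-fold, with a difference of -0.01 (SE 0.26) at 6 weeks and an interaction of 0.95 (SE 0.33, adjusted p = 0.838). Soat1, which esterifies cholesterol for storage, ran from 7.15 to 7.46 in WT and 7.51 to 8.18 in KO at 12 weeks, a difference of 0.61 (SE 0.18, adjusted p = 0.183). Ch25h, cholesterol 25-hydroxylase, gave -1.25 (SE 0.48, adjusted p = 0.757) at 6 weeks. The Cyp7b1 call was not stable. It was lost under 17 of 31 alternatives, among them centring of the arrays on their medians (0.89, adjusted p = 0.0744) and leaving out KO replicate 3 of 6 weeks or any 12-week array but WT replicate 2, with adjusted p up to 0.465. The list as a whole had a median of -0.02 at 6 weeks and 0.22 at 12 weeks.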

How the data were processed

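RNA of 18 samples was amplified with a whole-transcript kit and hybridised to 1 biotin-labelled array each, per the labels' protocols. The log2 values of 241576 probe sets were used as the authors deposited them; the authors' background correction and normalization are not given in the sources used here. Of the probe sets 212097 had 1 gene symbol and were used, 4475 had several and 25004 had none. In all 2668 old symbols were updated through a RefSeq table (GRCm38.p6). Each gene is the median of its probe sets, and the 20% of genes with the lowest mean were left out. One limma model (3.58.1, R 4.3.3) with 4 group means and 14 residual degrees of freedom gave all comparisons, two-sided, with Benjamini-Hochberg adjustment. The steps were tested on simulated data. Permutation tests were exact, except those of the myelin relation. The number of arrays limits the precision. Tables and plots were made with Python 3.11.15, scipy 1.17.1 and matplotlib 3.10.9.

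The members, lists, tests and alternatives were chosen with earlier results of these data known. Values are printed for members that passed, the 3 with the smallest p in each comparison and the largest genotype difference of each arm; other members are named with their values as examples, chosen after those were seen. Of the other pathway lists, genes that passed or had the smallest p are named. Alternatives covered the filter, normalization, probe-set summary, array weights, spread estimate, arrays in the fit, replicate number, listing order, sex, threshold and leaving out each array. Xist and Y-linked genes gave the sex of each array.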

Additional observations from a re-analysis of the deposited data

Results flagged for a closer look

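Among 99 sets of 4 to 6 arrays, those of the 31 members and both branch scores in each group of that size, 3 held an array whose gap to its nearest neighbour took up an unusually large part of the group's range (Dixon's criterion), where chance alone gives about 1 in 20. Pmvk, phosphomevalonate kinase, read 4.64 in WT replicate 2 of 6 weeks, with the next array at 6.00. Fdps, farnesyl pyrophosphate synthase, read 4.54 in KO replicate 4 of 12 weeks, with the next at 6.61. Fasn, fatty acid synthase, read 6.70 in KO replicate 1 of 12 weeks, with the next at 7.08. None of the 3 genes passed in a comparison.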

How the results depend on the processing

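The 1 member passing at 6 weeks, Thrsp, became 0 with only the arrays of the 2 groups compared, with the replicate block and without the 2 arrays of lowest weight; leaving out each array in turn gave 0 to 1. At 12 weeks the 1 member became 0 with the replicate block (Thrsp 1.34, adjusted p = 0.0509), and it was 1 under all other alternatives run. With the replicate block the 6-week Thrsp difference was 1.73 (adjusted p = 0.0995). Of 15 same-numbered pairs 2 deviated together with a correlation over 0.1, and correlations ran from -0.359 to 0.241. Between WT and KO of 12 weeks, the same-numbered pairs ran from 0.0242 to 0.098. These values do not settle whether the numbers pair the arrays. With each gene read from its brightest probe set, the sterol median of KO minus WT was -0.34 at 6 and -0.0032 at 12 weeks, the fatty acid median between stages in WT was -0.53, and signs turned for Tm7sf2 between stages in KO (0.11, adjusted p = 0.953) and Insig1 at 12 weeks (-0.16, adjusted p = 0.781). The cause was not tested. Leaving out each array in turn, the 6-week median ran from -0.34 to -0.033 for sterol and from -0.13 to 0.38 for fatty acid genes, and the sterol median of the interaction from 0.21 to 0.51. Counts for both stage comparisons and the interaction were 0 under every alternative run. The fit on 2 groups was not run for the interaction, and scores over members passing the filter are those of all members, since all 31 passed. Groups of 3 to 6 arrays limit what could be called.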
